A study of Mus musculus with 9 samples.

Results

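The genes described here encode the enzymes that build, sulfate and trim glycosaminoglycans. They were chosen by name, as 40 genes of chondroitin, heparan sulfate and hyaluronan synthesis out of the 54532 genes in the deposited table, and 36 of the 40 had enough reads to be tested. Their messenger RNA was measured in ST2 cells, a mouse bone marrow stromal line that can be turned towards osteoblasts, by poly-A selected RNA sequencing of 9 libraries. The study asks how the attachment of O-GlcNAc to proteins bears on the osteogenic response to Wnt. The 3 vehicle libraries came from cells without added protein or drug, 3 came from cells given 50 ng/ml rhWnt3a, a recombinant human Wnt ligand, and 3 came from cells given rhWnt3a together with 20 µM OSMI, an inhibitor of the O-GlcNAc transferase OGT. Treatment lasted 72 h in each group and the genotype was WT throughout. The treatment label of the last group names OSMI only, whereas its sample titles read rhWnt3aOSMI, and it was taken as the combination. No group with OSMI alone was analysed here, so a difference between the last pair of groups is a difference seen in the presence of rhWnt3a. ST2 is a single line, and nothing in the labels says whether the 3 libraries of a group came from separate cultures, so p-values measure only the spread between these samples. The study's legend to its heatmap of these data calls them 3 biological replicates.

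Chondroitin, dermatan and heparan sulfate chains are assembled in the Golgi on serines of core proteins. A short linkage region is laid down first, the chain is then extended by polymerases, and epimerases and sulfotransferases modify it. All sulfotransferases draw on PAPS, the activated form of sulfate. Hyaluronan differs in being made at the plasma membrane, without a core protein and without sulfate. In bone and cartilage these chains give the matrix its hydration and bind growth factors, and heparan sulfate on the cell surface binds Wnt proteins.

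Libraries were close in depth, with 16135898 to 17583945 reads counted on genes. Levels are given as CPM, counts scaled to library size, and 3 counts, the level below which a gene was not told from no expression, were worth 0.17 to 0.191 CPM. Vehicle replicate 3, rhWnt3a replicate 2 and rhWnt3a with OSMI replicate 3 each stood apart from the remaining pair of their group, with mean squared log2 differences over genes of 0.373 to 0.454 against 0.111 to 0.119 within those pairs. The first axis of the deviations within groups held 54.8% of their variance. On it, vehicle replicates 1 and 2, rhWnt3a replicates 1 and 3 and the combination replicate 3 fell on one side, with the remaining libraries on the other. Each of the 20 differences called below had the same sign within both sides. They were picked by a test on these same libraries, and a side held only 1 or 2 libraries of a group. The shared sign is therefore no separate check. Of 7 marker genes of marrow stroma 6 were tested, and their summed level was 18000 to 24700 CPM in vehicle, 14800 to 18000 CPM with rhWnt3a and 8240 to 16000 CPM with OSMI added. Thy1, the other stromal marker, had 0 to 4 counts in each library. Markers of blood cells summed to at most 1.7 CPM and those of endothelium to at most 0.428 CPM in any library.

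Promoters of 32 of the 40 genes were taken from the RefSeq table of GRCm38.p6, which gives 250 bases before and 50 bases after each start. There was no entry for Xylt1, Csgalnact1, Chsy3, Ext1, Extl3, Ndst1, Sulf1 or Has2. Windows are shown for Hs3st1 and Sulf2, with the largest rises after rhWnt3a, and for Chst3 and Papss2 among those that fell. Each is at the outermost start of the gene in the RefSeq table, 5′ to 3′ on the strand of the gene. Capitals mark matches, on either strand, to the TCF/LEF words CTTTGAT and CTTTGTT, to TATAAA and to the GC box GGGCGG.
Hs3st1 promoter, chr5:39644582-39644881, minus strand: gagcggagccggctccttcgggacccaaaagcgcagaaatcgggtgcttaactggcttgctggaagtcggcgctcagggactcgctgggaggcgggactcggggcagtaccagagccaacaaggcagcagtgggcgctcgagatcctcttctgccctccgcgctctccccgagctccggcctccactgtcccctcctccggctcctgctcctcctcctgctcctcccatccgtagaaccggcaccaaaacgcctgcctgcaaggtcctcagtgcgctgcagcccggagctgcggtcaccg
Sulf2 promoter, chr2:166155634-166155933, minus strand: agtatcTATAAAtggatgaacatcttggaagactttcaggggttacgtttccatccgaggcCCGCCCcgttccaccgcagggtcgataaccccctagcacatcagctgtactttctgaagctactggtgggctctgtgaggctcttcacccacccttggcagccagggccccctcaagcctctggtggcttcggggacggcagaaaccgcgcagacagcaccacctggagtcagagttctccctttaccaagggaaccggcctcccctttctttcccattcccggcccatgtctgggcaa
Chst3 promoter, chr10:60219211-60219510, minus strand: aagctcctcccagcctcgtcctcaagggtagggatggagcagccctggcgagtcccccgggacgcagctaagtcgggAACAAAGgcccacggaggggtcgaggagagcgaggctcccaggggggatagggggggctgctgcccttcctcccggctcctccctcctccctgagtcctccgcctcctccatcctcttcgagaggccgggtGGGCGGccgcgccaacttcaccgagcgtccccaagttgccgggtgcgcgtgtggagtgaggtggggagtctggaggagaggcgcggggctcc
Papss2 promoter, chr19:32595465-32595764, plus strand: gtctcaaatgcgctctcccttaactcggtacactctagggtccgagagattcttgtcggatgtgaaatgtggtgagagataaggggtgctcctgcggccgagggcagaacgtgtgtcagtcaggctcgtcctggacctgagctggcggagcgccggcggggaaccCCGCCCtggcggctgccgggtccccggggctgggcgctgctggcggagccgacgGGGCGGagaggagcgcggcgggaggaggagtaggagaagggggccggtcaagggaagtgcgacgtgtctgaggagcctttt
In the Hs3st1 window none of the words occurred. That window lies inside the gene, which in the deposited table starts at 39755475 on the minus strand. Sulf2 held a TATAAA 244 bases before its start and a GC box on the opposite strand 189 bases before it. The Chst3 window held a CTTTGTT on the opposite strand 173 bases before the start, and a GC box 42 bases before it. In the Papss2 window, which lies upstream of the gene start of 32620005 in the deposited table, GC boxes occurred 85 and 31 bases before the start. A further Papss2 window, chr19:32619755-32620054, spans that gene start and held none of the words. Matches did not overlap each other in these windows. Over the 40 windows of the 32 genes, 1 held a TCF/LEF word, 2 held TATAAA and 25 held a GC box. The same words occurred in 9.33%, 13.6% and 35.7% of all 32851 windows in the table, with no chromosome left out. A match is a matter of letters only and says nothing of binding.

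Levels were compared between genes as CPM per kilobase of the gene length in the deposited table. In vehicle cells the highest level was that of Dse, the main dermatan sulfate epimerase, at 74 ± 5.29 CPM per kb (mean ± SD, n = 3). It was followed by the chondroitin polymerizing factor Chpf at 51.1 ± 6.07, the heparan N-deacetylase and N-sulfotransferase Ndst1 at 34.7 ± 14.1 and the chondroitin synthase Chsy1 at 24.8 ± 2.91 CPM per kb. Ndst1 and Chsy1 did not differ beyond their spread. With rhWnt3a and OSMI together Chpf stood first at 63.6 ± 7.09 and Dse second at 57.8 ± 2.07 CPM per kb, a difference within the spread of Chpf. Among the tested genes the lowest in vehicle were Sulf2 at 0.275 ± 0.0358, Has2 at 0.285 ± 0.0654 and Chst3 at 0.686 ± 0.468 CPM per kb. The untested genes were at or near 0, with 0 or 1 counts for Xylt1 and Hs3st3b1, 0 to 4 for Chsy3 and 0 in every library for Hs3st3a1, which allows at most 0.191 CPM at the limit of 3 counts. Hs3st3b1 is near-identical to Hs3st3a1 over 15.7% of its transcript. For Hs3st3a1 the share is 48.5%, to Hs3st3b1 or to F930015N05Rik, a gene on the opposite strand. Reads could thus be split between these genes or dropped.

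Summed over the genes of a step, the sulfation enzymes of chondroitin and dermatan sulfate had 125 ± 2.78 CPM per kb in vehicle, 112 ± 1.51 with rhWnt3a and 98.8 ± 3.9 with rhWnt3a and OSMI, and the 3 groups did not overlap. PAPS synthases went from 23.7 ± 0.551 to 19.1 ± 1.6 and 15.1 ± 1.68 CPM per kb in the same order of groups, again without overlap. The heparan sulfation enzymes ran the other way, at 82.7 ± 13.5, 104 ± 19.5 and 109 ± 6.49 CPM per kb, with the combination above every vehicle library and the rhWnt3a libraries overlapping both. Chondroitin chain enzymes had 104 ± 2.94, 103 ± 3.58 and 108 ± 9.23 CPM per kb, with overlapping groups, and heparan chain enzymes 65.6 ± 3.44, 62 ± 4.8 and 68 ± 2.89, where the combination lay just above rhWnt3a and overlapped vehicle. Endosulfatases had 5.36 ± 0.988, 6.98 ± 0.645 and 4.71 ± 1.09 CPM per kb, with the combination below every rhWnt3a library, and hyaluronan synthases 1.67 ± 1.18, 0.887 ± 0.474 and 0.821 ± 0.173, with overlapping groups. Linkage enzymes stood at 37.6 ± 5.42 CPM per kb in vehicle, at 51.4 ± 4.59 with rhWnt3a, above every vehicle library, and at 41 ± 5.53 with OSMI added. These sums are dominated by the abundant genes of each step and are given as a description, without a test.

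**Figure D1:**
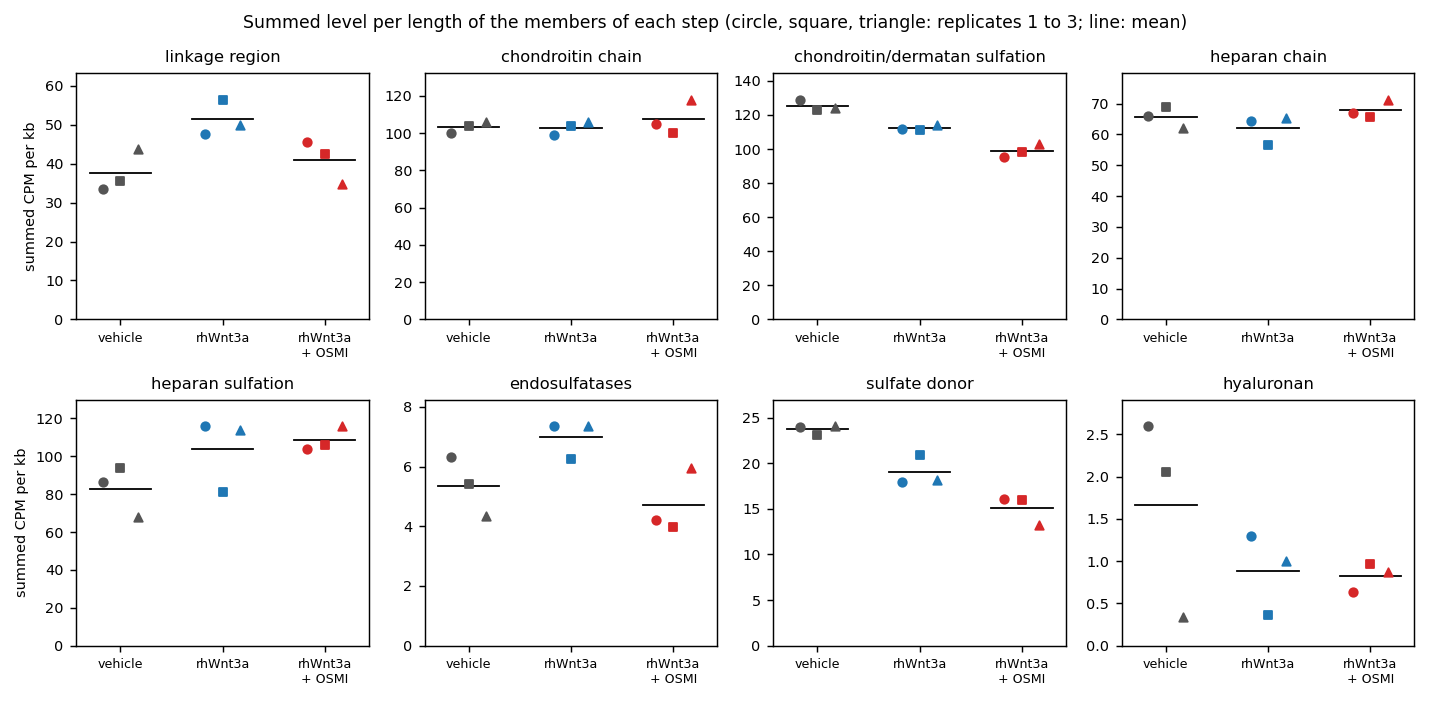
Summed level of the genes of each biosynthetic step in each library, in CPM per kb on linear axes that start at 0. Points are libraries (circle, square and triangle for replicates 1, 2 and 3) and lines are group means. Chondroitin and dermatan sulfation and the sulfate donor enzymes stepped down from vehicle (means 125 and 23.7) through rhWnt3a (112 and 19.1) to rhWnt3a with OSMI (98.8 and 15.1).

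The rule for a call was a p below 0.05 in edgeR's quasi-likelihood test, after Benjamini-Hochberg adjustment over all 14004 tested genes, and a difference of more than 0.5 on the log2 scale. After rhWnt3a, 6 of the 36 tested genes were called against vehicle (16.7%), where 8.78% of all tested genes were. Hs3st1, Sulf2 and Glce rose, which act on heparan sulfate, and Csgalnact1, Chst3 and Papss2 fell, which act in chondroitin synthesis, chondroitin sulfation and sulfate activation. Over all tested genes 2.92% were called higher and 5.86% lower. The median log2 fold change of the 36 tested genes was 0.003, against 0.037 over all genes. When OSMI was added, 5 of 36 were called against rhWnt3a alone (13.9%), compared with 4.74% of all tested genes, or 3.05% called lower. All 5 fell, namely Csgalnact1, Hs3st1, Sulf2, Papss2 and Has2, and the median over the 36 tested was -0.16 against -0.01 over all genes. No gene of the set was called higher in this comparison by the main edgeR fit, and 1 had an unadjusted p under 0.05 with a rise beyond the threshold. Extl1 was called higher by DESeq2 and by edgeR without a filter, and 2 genes were without the 3 libraries that stood apart. Against vehicle, the cells with both agents had 9 of 36 called (25%), compared with 14.2% of all tested genes, 3 higher and 6 lower. This last comparison shares its libraries with the other 2. Without the 3 libraries that stood apart the counts were 11, 13 and 15, while those over all genes rose to 2505, 1788 and 3313. That leaves vehicle and rhWnt3a libraries on the first side of the axis only and those of the combination on the second only, so in the latter 2 counts the addition of OSMI and the axis cannot be told apart. No test was made of whether the set was called more often than other genes. In bulk RNA, fewer cells that express a gene and less of its RNA in each cell cannot be told apart.

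**Figure D2:**
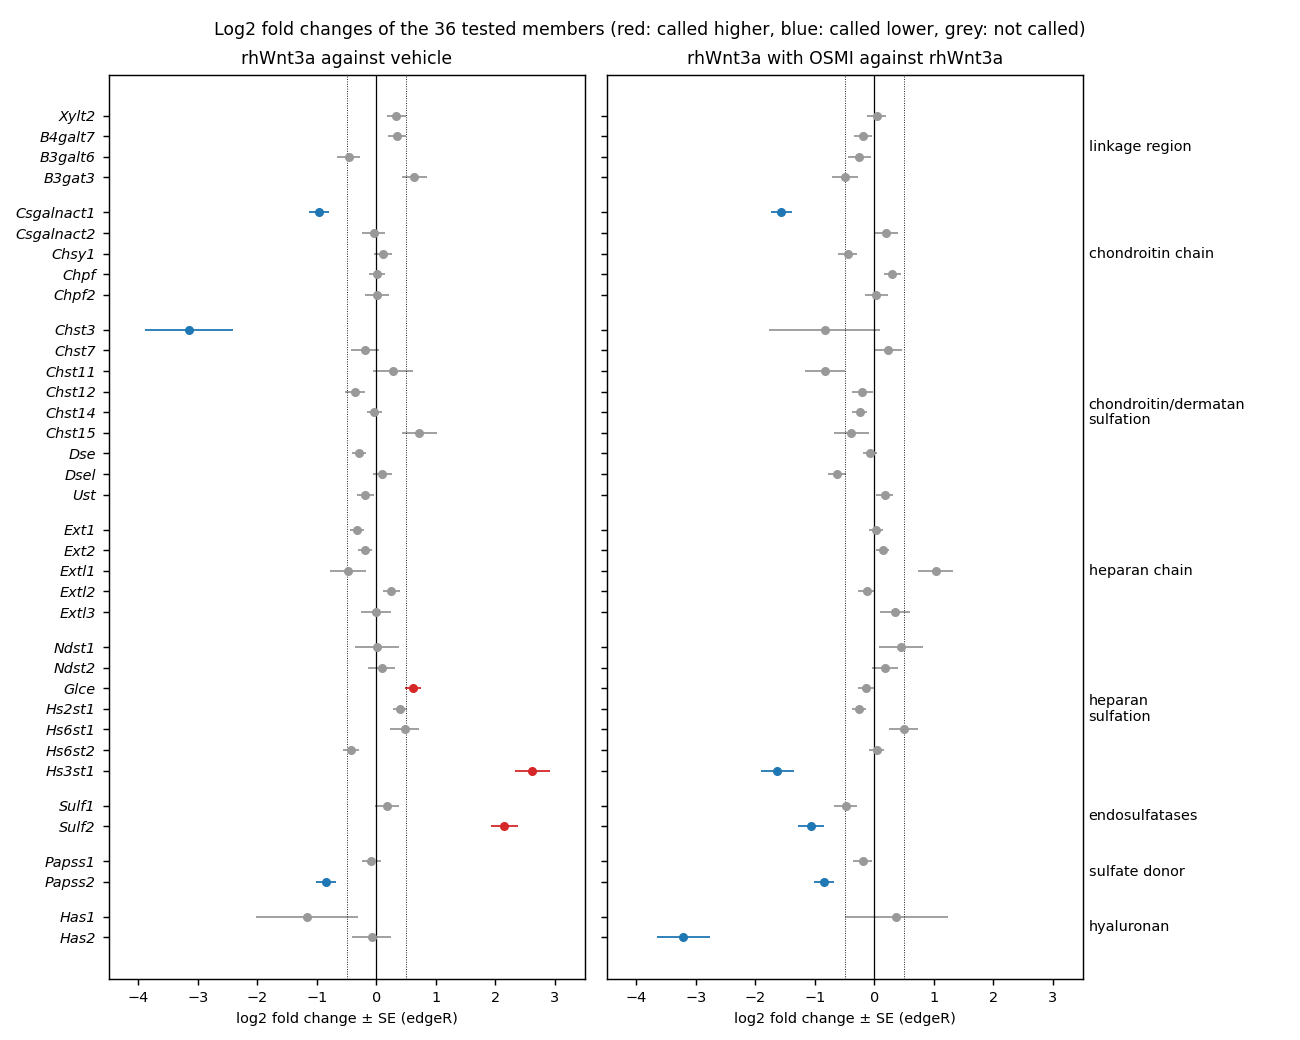
Log2 fold changes with standard errors of the 36 tested genes, ordered by biosynthetic step, for rhWnt3a against vehicle (left) and rhWnt3a with OSMI against rhWnt3a (right). Dotted lines mark a log2 fold change of 0.5 in either direction, red and blue mark genes called higher and lower. On the left 3 genes were called higher and 3 lower, and on the right 5 were called lower and none higher.

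In 17 of the 36 genes the rhWnt3a libraries did not overlap the vehicle libraries (47.2%, against 26.4% of all tested genes), 8 higher and 9 lower. With OSMI added 15 did not overlap the rhWnt3a libraries (41.7%, against 33.7%), 5 higher and 10 lower. Of the combination against vehicle 17 did not overlap (47.2%, against 38.8%), 5 higher and 12 lower.

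Among the linkage region enzymes, none of the 4 tested was called after rhWnt3a or after addition of OSMI. B3gat3, which adds the glucuronic acid that completes the linker, had 28.2, 30.4 and 38.7 CPM in vehicle, 45.3, 59.1 and 47.3 with rhWnt3a, and 43.4, 38.7 and 25.6 with OSMI added. The rhWnt3a libraries were higher than all others, but neither the difference from vehicle (log2 0.64 ± 0.21 SE, edgeR adjusted p = 0.106) nor that from the combination (log2 -0.49 ± 0.21, edgeR adjusted p = 0.204) passed. Without the 3 libraries apart, with 2 left in each group, the first was among the 11 differences called after rhWnt3a. B3galt6 (ENSMUSG00000050796, chr4:155989466-155992649, minus strand), which adds the second galactose, had 11.7, 11.7 and 16.1 CPM in vehicle, 8.21, 11.2 and 9.27 with rhWnt3a, and 7.38, 9.3 and 7.4 with both agents. Vehicle libraries were the highest in every case, and only the combination passed against vehicle (log2 -0.71 ± 0.20, edgeR adjusted p = 0.0356). That call was lost on leaving out any vehicle library, rhWnt3a replicate 3, or replicate 1 or 3 of the combination (adjusted p 0.0601 to 0.117). Xylt2, the xylosyltransferase that starts the linker, had 25.2, 26.6 and 27.8 CPM in vehicle, 36.2, 28.1 and 36.3 with rhWnt3a, and 34.9, 28.6 and 40.2 with OSMI added. B4galt7, which adds the first galactose, had 16.7, 18.5 and 21.8 CPM, then 22.3, 26 and 24.4, and then 21.3, 24 and 18.6 CPM in the same order of groups. Both were higher with rhWnt3a without overlap, and neither passed (log2 0.34 ± 0.16 and 0.35 ± 0.15, edgeR adjusted p = 0.287 and 0.238).

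Csgalnact1 (ENSMUSG00000036356, chr8:68356781-68735146, minus strand) transfers the first N-acetylgalactosamine and so commits a linker to chondroitin. Its level was 25.3, 27.5 and 35.2 CPM in vehicle, 14.3, 13.8 and 17 CPM with rhWnt3a, and 5.2, 4.42 and 5.59 CPM with rhWnt3a and OSMI. The 3 groups stood apart from one another in descending order. It fell 1.95-fold after rhWnt3a (log2 -0.97 ± 0.17, edgeR adjusted p = 0.0059) and another 2.96-fold when OSMI was added (log2 -1.56 ± 0.18, adjusted p = 0.00208), and ended 5.78-fold under vehicle (log2 -2.53 ± 0.18, adjusted p = 2.98e-05). All 3 calls held in each of 18 alternative analyses, with log2 fold changes of -1.06 to -0.79 after rhWnt3a and -1.71 to -1.47 on adding OSMI. Csgalnact2, the other enzyme of this step, was not called over all 9 libraries, with 47.8 to 74.6 CPM. Without the 3 libraries apart it was among the 13 called on adding OSMI, where OSMI and the axis cannot be told apart. Within the second side it had 74.6 and 73.3 CPM with OSMI against 67.8 with rhWnt3a, and within the first 47.8 against 49.8 and 53.1. Per length, Csgalnact1 went from 34.7% ± 1.97 of the pair in vehicle to 22.2% ± 3.98 with rhWnt3a and 8.02% ± 2.7 with both agents.

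The chain-extending enzymes moved less. Chsy1 had 112, 109 and 89.9 CPM in vehicle, 110, 106 and 121 with rhWnt3a, and 73, 73.4 and 100 CPM with OSMI added, the last 3 lower than rhWnt3a alone without passing (log2 -0.45 ± 0.16, edgeR adjusted p = 0.135). Replicate 3 of the combination, the highest of these, is the library that stood apart. Chsy1 was called without it, where the combination is left on the second side of the axis only and the axis and OSMI cannot be told apart. On that side Chsy1 had 73 and 73.4 CPM with OSMI against 106 with rhWnt3a and 89.9 in vehicle, and on the first side 100 CPM against 110 and 121, and 112 and 109. Chpf went the other way, with 177, 192 and 223 CPM in vehicle, 189, 210 and 199 with rhWnt3a, and 239, 222 and 275 CPM with OSMI added, the last step again without overlap and without passing (log2 0.30 ± 0.14, edgeR adjusted p = 0.232). Chpf2 lay between 44.6 and 71.2 CPM in all libraries, and 44.1% of its exon bases are shared with other annotated genes, chiefly Smarcd3 on the opposite strand.

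Of the 9 genes that sulfate or epimerize chondroitin and dermatan sulfate, Chst3 (ENSMUSG00000057337, chr10:60181532-60219260, minus strand) was the only one called after rhWnt3a. It encodes chondroitin 6-O-sulfotransferase and its loss causes skeletal dysplasia. Counts were 118, 78 and 21 in vehicle, 14, 4 and 7 with rhWnt3a, and 4, 1 and 9 with both agents, or 7.21, 4.97 and 1.19 CPM, 0.852, 0.227 and 0.419 CPM, and 0.242, 0.0574 and 0.525 CPM. Every vehicle library was higher than every treated library, although vehicle replicate 3 was only slightly so. The pooled vehicle level was 8.85 times that with rhWnt3a (95% counting interval 5.84 to 14), an interval that covers counting error only. The fitted log2 fold change was -3.15 ± 0.74 (edgeR adjusted p = 0.0249), and for the combination against vehicle -3.98 ± 0.80 (adjusted p = 0.00866). Leaving out 1 library moved them between -3.76 and -2.61 and between -4.84 and -3.45. The first call was lost without vehicle replicate 1 or 2 or rhWnt3a replicate 2 or 3 (adjusted p 0.0755 to 0.105), while the second held in all 17 alternatives that gave a value. Between rhWnt3a with and without OSMI the levels overlapped (log2 -0.84 ± 0.94, edgeR adjusted p = 0.611).

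Chst7, the other enzyme of 6-O-sulfation, lay between 4.81 and 8.43 CPM in all libraries and was not called. Per length, Chst3 made up 31.3%, 25.8% and 4.57% of the pair in vehicle, 5.68%, 1.24% and 2.55% with rhWnt3a, and 1.35%, 0.282% and 2.7% with both agents, so vehicle replicate 3 lay within the range of the rhWnt3a libraries. Among the 4-O-sulfotransferases, Chst12 had 24.1, 24.3 and 23.2 CPM in vehicle, 16.6, 21.8 and 17.8 with rhWnt3a, and 13.5, 15.5 and 19.8 with both agents. Vehicle was higher than both other groups without overlap, and neither difference passed (log2 -0.35 ± 0.17, edgeR adjusted p = 0.295, after rhWnt3a, and -0.55 ± 0.17, adjusted p = 0.0555, for the combination). DESeq2 called the second of these, as did edgeR without replicate 3 of the combination, and both were called without the 3 libraries apart. Chst14, which sulfates dermatan, had 23.4, 20.8 and 22 CPM in vehicle, 22.3, 22.8 and 19.4 with rhWnt3a, and 18.4, 17.1 and 18.8 CPM with OSMI added, the last lower without overlap and without passing (log2 -0.25 ± 0.13, edgeR adjusted p = 0.28).

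Chst15, which adds a second sulfate to 4-sulfated units to give chondroitin sulfate E, had 21.1, 20.3 and 12.1 CPM in vehicle, 29.8, 26.7 and 32 with rhWnt3a, and 15.1, 18.8 and 33.8 with OSMI added. All rhWnt3a libraries were higher than vehicle, without passing (log2 0.73 ± 0.30, edgeR adjusted p = 0.209), though called without the 3 libraries apart. On the opposite strand 17.9% of its exon bases overlap Gm10584. The uronyl 2-O-sulfotransferase Ust was higher in all 3 libraries with OSMI (35.8, 33.7 and 34.6 CPM) than with rhWnt3a alone (31.6, 28.2 and 32.6 CPM), with 39.5, 36.8 and 28.8 CPM in vehicle, and the step on adding OSMI was a log2 difference of 0.17 ± 0.14 (edgeR adjusted p = 0.485). That difference was about the size of its error.

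The epimerases Dse and Dsel convert glucuronic to iduronic acid and thereby turn chondroitin into dermatan. Dse had 353, 354 and 399 CPM in vehicle, 294, 309 and 302 with rhWnt3a, and 290, 297 and 277 with both agents. Vehicle was the highest group without overlap, at differences that did not pass (log2 -0.29 ± 0.12, edgeR adjusted p = 0.201, and -0.36 ± 0.12, adjusted p = 0.0731). Dsel (ENSMUSG00000038702, chr1:111858702-111864918, minus strand) had 43.1, 35 and 34.6 CPM in vehicle, 45.9, 33.8 and 41.3 with rhWnt3a, and 24.2, 28.2 and 25.9 with OSMI added. The last group was below both others, whereas vehicle and rhWnt3a overlapped (log2 0.10 ± 0.15, edgeR adjusted p = 0.815). It passed against vehicle (log2 -0.52 ± 0.15, edgeR adjusted p = 0.0478) and missed the threshold against rhWnt3a (log2 -0.63 ± 0.15, adjusted p = 0.0506). DESeq2 called the latter, as did edgeR without a filter, with length and GC offsets, without vehicle replicate 3 and without the 3 libraries apart. The call against vehicle was lost on leaving out any library but rhWnt3a replicate 2 (adjusted p 0.0544 to 0.157).

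Heparan chain polymerization showed no called gene in any of the 3 comparisons by the main edgeR fit. On adding OSMI, Extl1 was called higher by DESeq2 and by edgeR without a filter. It was also called without the 3 libraries apart, where OSMI and the axis cannot be told apart. At an unadjusted p under 0.05 and the same fold threshold Extl1 alone was added, at 2.1 to 3.59 CPM with rhWnt3a and 5.08 to 6.53 CPM with OSMI. Ext1, a subunit of the polymerase, had 108, 120 and 106 CPM in vehicle, 94.4, 80.5 and 91.8 CPM with rhWnt3a, and 95.9, 91 and 84.2 with OSMI added. Its partner Ext2 had 162, 170 and 165 CPM in vehicle, 140, 146 and 150 with rhWnt3a, and 156, 150 and 174 with OSMI added. Both subunits were lower with rhWnt3a without overlap, by log2 -0.32 ± 0.12 (edgeR adjusted p = 0.156) and -0.19 ± 0.11 (adjusted p = 0.428), and neither passed. Extl2 and Extl3, transferases of single N-acetylglucosamines at the start of the chain, overlapped between all groups, at 37 to 52.6 and 66.2 to 150 CPM.

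Hs3st1 (ENSMUSG00000051022, chr5:39613935-39755475, minus strand), a heparan sulfate 3-O-sulfotransferase known for making the antithrombin-binding site of heparin, had the largest rise. Counts were 29, 43 and 55 in vehicle, 264, 283 and 250 with rhWnt3a, and 97, 110 and 52 with OSMI added, which made 1.77, 2.74 and 3.11 CPM, 16.1, 16.1 and 15 CPM, and 5.87, 6.31 and 3.03 CPM. Libraries with rhWnt3a alone were far above all others and close to each other, while replicate 3 of the combination fell within the vehicle range. The rise was 6.16-fold (log2 2.62 ± 0.30, edgeR adjusted p = 4.65e-04), and on adding OSMI the level fell 3.09-fold (log2 -1.63 ± 0.28, adjusted p = 0.012). Both calls held in each of 18 alternatives, at log2 fold changes of 2.42 to 2.8 and -1.82 to -1.35. Against vehicle the combination was at the threshold (log2 0.99 ± 0.30, edgeR adjusted p = 0.0499), and this call was lost on leaving out any library but rhWnt3a replicate 2 and replicate 3 of the combination (adjusted p 0.0538 to 0.154).

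Glce (ENSMUSG00000032252, chr9:62057248-62122655, minus strand), the epimerase that makes iduronic acid in heparan sulfate, had 130, 146 and 164 CPM in vehicle, 239, 198 and 239 with rhWnt3a, and 208, 213 and 192 with OSMI added. Both treated groups were above vehicle without overlap and overlapped each other. Glce rose 1.53-fold after rhWnt3a (log2 0.62 ± 0.14, edgeR adjusted p = 0.0205), a call lost without vehicle replicate 1 or 2 or rhWnt3a replicate 1 or 3 (adjusted p 0.0676 to 0.0972). The combination differed from vehicle by log2 0.48 ± 0.14 (edgeR adjusted p = 0.0439), under the fold threshold, and from rhWnt3a by -0.14 ± 0.14 (adjusted p = 0.558). Per length it stood at 33 ± 3.52 CPM per kb with rhWnt3a, among the highest of the 40 genes.

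Hs6st1 (ENSMUSG00000045216, chr1:36068400-36106446, plus strand), a 6-O-sulfotransferase, had 19.3, 25.9 and 16.6 CPM in vehicle, 33.8, 18.6 and 33.5 with rhWnt3a, and 41.5, 34.7 and 44.4 with both agents. Its libraries with both agents were above all others, and the middle rhWnt3a value is that of the library apart. It rose 1.95-fold against vehicle (log2 0.97 ± 0.25, edgeR adjusted p = 0.0271), which was lost without replicate 1 or 3 of vehicle or of the combination (adjusted p 0.0615 to 0.0928), and neither step alone passed (log2 0.48 ± 0.25, adjusted p = 0.336, and 0.49 ± 0.24, adjusted p = 0.265). The step after rhWnt3a was among the 11 called without the 3 libraries apart. Gm37335 on the opposite strand overlaps 8.07% of its exon bases. Hs6st2, which carries out the same reaction, had 52, 53.3 and 61.9 CPM in vehicle, 43.5, 42.2 and 39.1 with rhWnt3a, and 47.9, 42 and 38 with both agents, and after rhWnt3a it was lower without overlap and without passing (log2 -0.42 ± 0.13, edgeR adjusted p = 0.0874). Per length Hs6st1 was 34.1% ± 6.57 of the pair in vehicle, 48.4% ± 8.8 with rhWnt3a and 57% ± 4.53 with both agents, and the last group did not overlap vehicle.

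Hs2st1, which sulfates iduronic acid at its 2-O position, had 97.5, 89.2 and 87.4 CPM in vehicle, 121, 116 and 123 with rhWnt3a, and 100, 110 and 90.7 with OSMI added. The rhWnt3a libraries were above both other groups, at log2 0.39 ± 0.12 from vehicle (edgeR adjusted p = 0.0732) and -0.26 ± 0.12 for the step to the combination (adjusted p = 0.226), neither of which passed. Ndst2, within the set the less abundant N-sulfotransferase beside Ndst1, overlapped between all groups at 10 to 19.4 CPM.

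**Figure D3:**
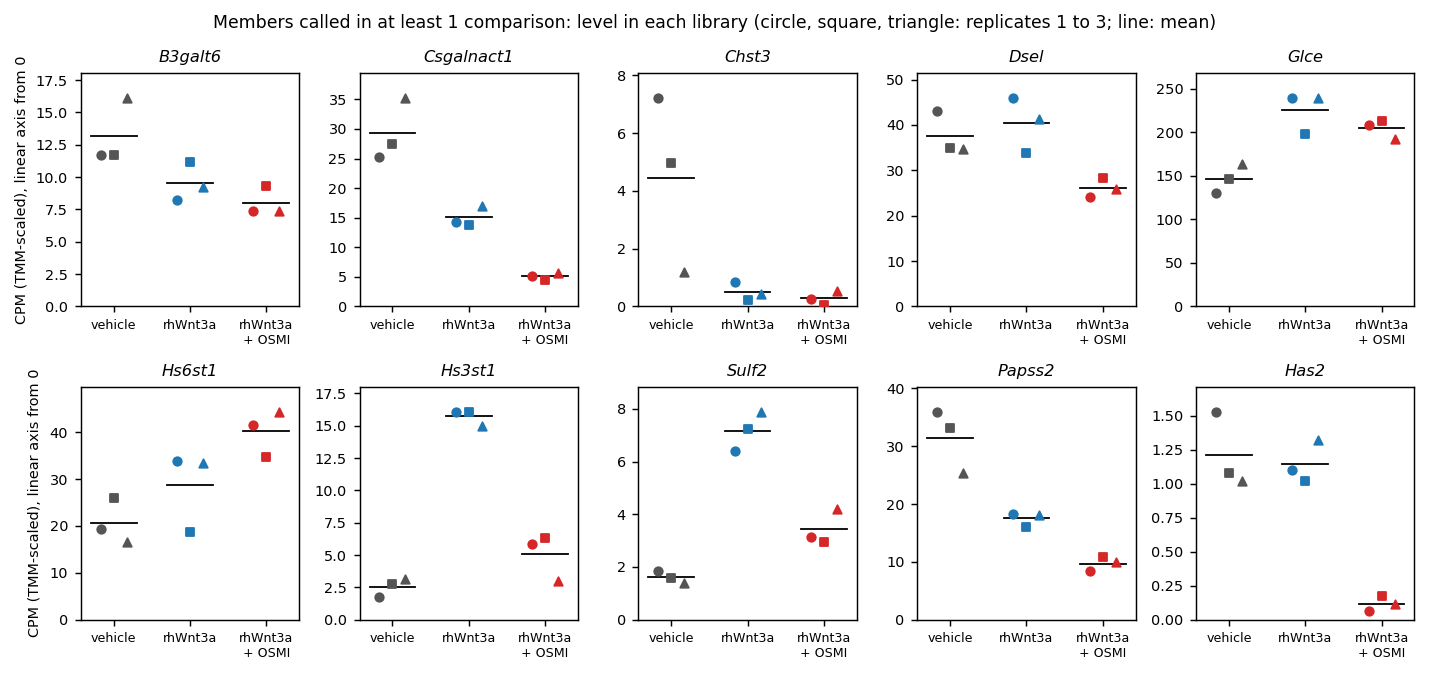
Level in CPM of each of the 10 genes called in at least 1 comparison, with a panel per gene, a linear axis from 0, a point per library (circle, square and triangle for replicates 1, 2 and 3) and a line at the group mean. Csgalnact1 and Papss2 stepped down over the 3 groups, Hs3st1 and Sulf2 peaked with rhWnt3a alone at means of 15.7 and 7.17 CPM, and Has2 was low with both agents only.

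Sulf1 and Sulf2 encode endosulfatases that remove 6-O-sulfates from heparan sulfate outside the cell, a change known to loosen the hold of the chain on Wnt proteins. Sulf2 (ENSMUSG00000006800, chr2:166073089-166155663, minus strand) had 1.83, 1.59 and 1.41 CPM in vehicle, 6.39, 7.22 and 7.9 CPM with rhWnt3a, and 3.14, 2.93 and 4.2 CPM with OSMI added, from counts of 25 to 30, 105 to 132 and 51 to 72. The 3 groups did not overlap, with the combination between the others. On the opposite strand Ncoa3 overlaps 2.62% of the Sulf2 exon bases. Sulf2 rose 4.43-fold after rhWnt3a (log2 2.15 ± 0.23, edgeR adjusted p = 3.19e-04), fell 2.09-fold on adding OSMI (log2 -1.07 ± 0.21, adjusted p = 0.0222), and stayed above vehicle in the combination (log2 1.08 ± 0.23, adjusted p = 0.0113). The first and last of these held in each of 18 alternatives. The fall on adding OSMI kept its direction but lost its call without vehicle replicate 2, any rhWnt3a library, or replicate 1 or 2 of the combination (adjusted p 0.0509 to 0.0966). Sulf1, the more abundant of the pair, had 46.3 to 67.8 CPM in vehicle, 56.6 to 70.9 with rhWnt3a and 39.1 to 59.3 with OSMI added. The main edgeR fit did not call it. With length and GC offsets it was called lower on adding OSMI and for the combination against vehicle. Both differences were also called without the 3 libraries apart, where OSMI and the axis cannot be told apart. Per length Sulf2 was 5.17% ± 0.33 of the pair in vehicle, 17.6% ± 2.54 with rhWnt3a and 12.4% ± 0.4 with both agents, without overlap, and so remained the minor endosulfatase.

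Papss1 and Papss2 make PAPS. Papss2 (ENSMUSG00000024899, chr19:32620005-32667187, plus strand), whose loss causes a skeletal dysplasia, had 36, 33.1 and 25.3 CPM in vehicle, 18.3, 16.1 and 18.1 CPM with rhWnt3a, and 8.4, 10.8 and 9.91 CPM with OSMI added. The groups stepped down without overlap, as for Csgalnact1. It fell 1.8-fold after rhWnt3a (log2 -0.84 ± 0.17, edgeR adjusted p = 0.0105) and 1.81-fold on adding OSMI (log2 -0.85 ± 0.17, adjusted p = 0.0229), and was 3.24-fold lower with both agents than in vehicle (log2 -1.70 ± 0.17, adjusted p = 2.13e-04). The last of these held in each of 18 alternatives. The fall after rhWnt3a lost its call without vehicle replicate 1 or 2 (adjusted p 0.0519 and 0.0557), and that on adding OSMI without vehicle replicate 2, any rhWnt3a library, or replicate 1 or 2 of the combination (adjusted p 0.0509 to 0.0922). Papss1 lay between 31.9 and 52.3 CPM and was not called, so the share of Papss2 in the pair per length went from 36.5% ± 6.64 to 25.5% ± 3.69 and 17.9% ± 3.23. No library of one group overlapped the next in that share.

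**Figure D4:**
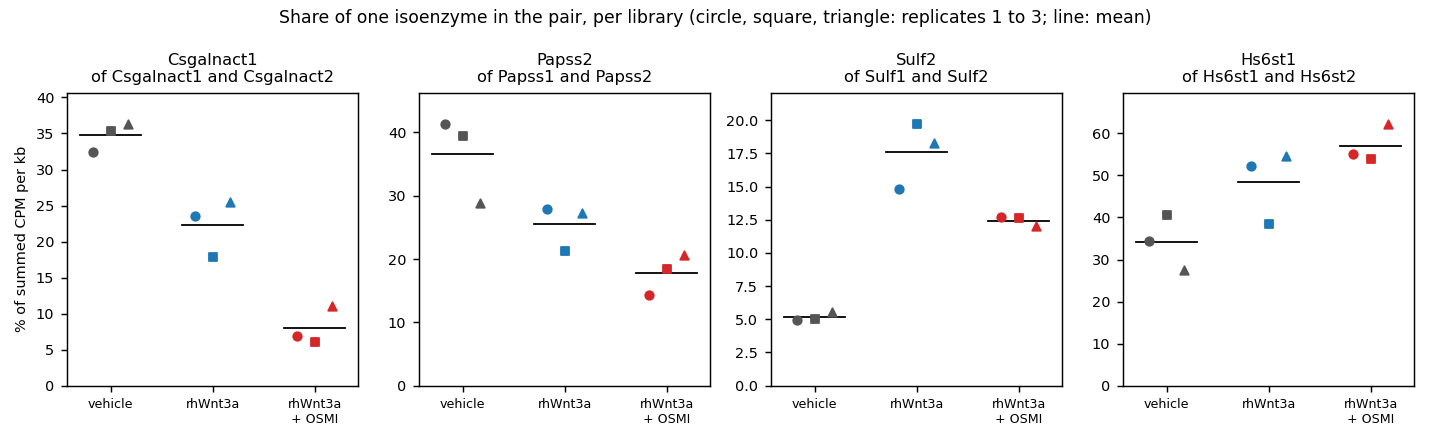
Share of Csgalnact1, Papss2, Sulf2 and Hs6st1 in the summed CPM per kb of the isoenzyme pair named in each panel, in percent, on linear axes from 0, with a point per library (circle, square and triangle for replicates 1, 2 and 3) and a line at the group mean. Csgalnact1 went from a mean of 34.7% in vehicle to 8.02% with both agents and Papss2 from 36.5% to 17.9%, whereas Sulf2 was highest with rhWnt3a alone at 17.6%.

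Has1 and Has2, the hyaluronan synthases in the set, were at low levels, and hyaluronan synthesis outside the set is not covered by them. Has2 (ENSMUSG00000022367, chr15:56665627-56694539, minus strand) had 25, 17 and 18 counts in vehicle, 18, 18 and 22 with rhWnt3a, and 1, 3 and 2 with OSMI added, or 1.02 to 1.53, 1.02 to 1.32 and 0.0605 to 0.172 CPM. Vehicle and rhWnt3a overlapped (log2 -0.08 ± 0.33, edgeR adjusted p = 0.942), and every library with OSMI was at or under the limit of 3 counts and below all others. The pooled level with rhWnt3a was 9.74 times that with OSMI added (58 against 6 counts, 95% counting interval 4.21 to 27.6), and the vehicle level 10.3 times (60 against 6 counts, interval 4.45 to 29.1). In the fit the differences were log2 -3.21 ± 0.45 (edgeR adjusted p = 0.0052) and -3.29 ± 0.45 (adjusted p = 0.00113), values that depend on the prior count at such low counts, and both held in all 17 alternatives that gave a value. The antisense gene Has2os covers 4.3% of the Has2 exon bases, and the strand of the libraries is not given in the sources used here.

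Has1, the other hyaluronan synthase in the set, had 10.1, 8.16 and 0.452 CPM in vehicle, 4.68, 0.569 and 3.11 with rhWnt3a, and 2.78, 4.19 and 3.79 with both agents, and was not called by edgeR over all 9 libraries. Its low values were those of vehicle replicate 3 and rhWnt3a replicate 2, which stand apart over all genes as well. Without the 3 libraries apart Has1 was called lower after rhWnt3a and for the combination against vehicle. For the latter, the combination and the axis cannot be told apart. Within the second side Has1 was higher with both agents, at 2.78 and 4.19 CPM against 0.452 in vehicle. Within the first side it was lower, at 3.79 CPM against 10.1 and 8.16. The share of Has2 in the pair followed the low Has1 values, at 70.6% and 65.7% in the libraries apart and 12.4% to 31.1% in the other libraries without OSMI.

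The same libraries set the spread of several abundant genes, which were singled out after their values were seen. Ndst1, the main N-deacetylase and N-sulfotransferase of heparan sulfate, had 248, 271 and 113 CPM in vehicle, 265, 116 and 257 with rhWnt3a, and 250, 260 and 356 with both agents. Vehicle replicate 3 and rhWnt3a replicate 2 were the lowest of their groups by far, replicate 3 of the combination was the highest, and the groups overlapped. Differences did not pass after rhWnt3a (log2 0.01 ± 0.37, edgeR adjusted p = 0.991), on adding OSMI (log2 0.44 ± 0.37, adjusted p = 0.492) or for the combination against vehicle (log2 0.45 ± 0.37, adjusted p = 0.438). Within sides of the axis Ndst1 was higher with both agents, at 250 and 260 CPM against 113 and 116 on the second side and 356 CPM against 248 to 271 on the first, a reading made after the values were seen and without a test. Extl3 likewise had 114 and 113 CPM with both agents against 73 and 66.2 on the second side, and 150 CPM against 111 to 120 on the first, and passed in no comparison. Chst11, another 4-O-sulfotransferase, had 75.6, 66.4 and 31.3 CPM in vehicle, 74.8, 54 and 81.4 with rhWnt3a, and 29.9, 33.3 and 55 with OSMI added. Chst11 missed the call on adding OSMI (log2 -0.83 ± 0.33, edgeR adjusted p = 0.181). Without the 3 libraries it was among the 13 called there and among the 15 for the combination against vehicle, where the combination and the axis cannot be told apart. Within the second side Chst11 had 29.9 and 33.3 CPM with both agents against 54 with rhWnt3a and 31.3 in vehicle, so against vehicle it was no lower on that side. The part of these libraries in the differences was not tested beyond leaving them out.

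**Figure D5:**
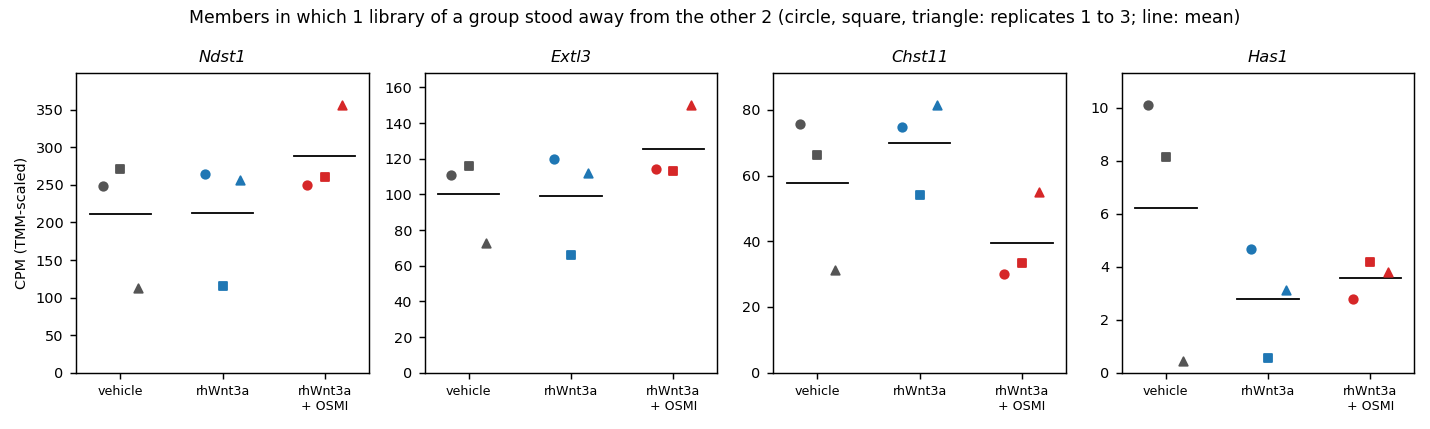
Level in CPM of Ndst1, Extl3, Chst11 and Has1 in each library, on linear axes from 0, with circle, square and triangle for replicates 1, 2 and 3 and a line at the group mean. The vehicle triangle and the rhWnt3a square lie under the other libraries of their groups for all 4 genes, at 113 and 116 CPM for Ndst1, and the triangle of the combination lies above for Ndst1, Extl3 and Chst11.

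Genes around the pathway were read from 4 further lists. Of 18 other glycosaminoglycan enzymes 8 were tested, and after rhWnt3a Chst2, a 6-O-sulfotransferase of N-acetylglucosamine in keratan sulfate and other glycans, rose from 40.3 ± 1.51 to 110 ± 2.61 CPM (log2 1.45, edgeR adjusted p = 8.6e-04). Chst1, the keratan sulfate galactose sulfotransferase, fell from 5.85 ± 0.607 to 1.66 ± 0.383 CPM (log2 -1.81, adjusted p = 0.00144), and Pxylp1, the phosphatase that removes phosphate from the linker xylose, rose from 4.42 ± 1.23 to 7.99 ± 0.441 CPM (log2 0.86, adjusted p = 0.0419). The Pxylp1 call was lost on leaving out any library but vehicle replicate 1 and replicate 3 of the combination (adjusted p 0.0583 to 0.129). On adding OSMI none of the 8 was called by the main edgeR fit and 1 was lower at an unadjusted p under 0.05, as it was by DESeq2. Pxylp1 had 4.29 ± 0.601 CPM there. Against vehicle the combination kept Chst2 higher and Chst1 lower.

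Of 16 genes that supply sugar nucleotides and sulfate 15 were tested. None was called after rhWnt3a by edgeR or DESeq2, with 3 at an unadjusted p under 0.05, though 3 were called by edgeR without rhWnt3a replicate 2 and 4 without the 3 libraries apart. On adding OSMI none was called by the main edgeR fit, by DESeq2 or at an unadjusted p. With length and GC offsets 1 was called lower, and without the 3 libraries apart 2 were. Among those that fell for the combination against vehicle were Ugdh, which makes UDP-glucuronic acid (98.6 ± 5.48 to 69.6 ± 6.07 CPM, log2 -0.50, edgeR adjusted p = 0.0402), and Ugp2, which makes UDP-glucose (109 ± 11.6 to 54.3 ± 7.92 CPM, adjusted p = 0.00356). The Ugdh call was lost on leaving out any 1 of the 9 libraries, and that of Ugp2 on leaving out none.

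Of 17 genes of glycosaminoglycan breakdown 16 were tested. After rhWnt3a the hyaluronan-degrading Cemip rose from 19 ± 4.28 to 64 ± 19.5 CPM (log2 1.75, edgeR adjusted p = 0.00277) and Tmem2 from 23.4 ± 5.55 to 81.8 ± 18.2 CPM (log2 1.80, adjusted p = 0.00277), while Naglu, a lysosomal heparan sulfate glucosaminidase, fell (log2 -0.66, adjusted p = 0.00682). On adding OSMI Gusb, the lysosomal glucuronidase, was the 1 gene called by edgeR, lower (log2 -0.54, edgeR adjusted p = 0.032), a call lost on leaving out any library but vehicle replicate 3 (adjusted p 0.0521 to 0.117). DESeq2 called 2 lower there. For the combination against vehicle Cemip and Tmem2 were called higher, and the lysosomal hydrolases Gusb, Naglu, Glb1 and Hexa were among those called lower, of which Glb1 lost its call without vehicle replicate 1 or 2 or replicate 2 or 3 of the combination.

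Of 15 core proteins 13 were tested. Decorin, encoded by Dcn, rose from 10.3 ± 2 to 43.9 ± 4.05 CPM after rhWnt3a (log2 2.09, edgeR adjusted p = 8.68e-05) and fell to 1.39 ± 0.145 CPM with OSMI added (log2 -4.98, adjusted p = 5.93e-06). Bgn and Cspg4, carriers of chondroitin or dermatan sulfate, fell after rhWnt3a (log2 -1.09 and -1.76, adjusted p = 0.0046 and 0.00635). On adding OSMI 5 of 13 fell, namely Dcn, Vcan (log2 -2.41, edgeR adjusted p = 0.00377), Bgn, Sdc1 and Sdc3. None was called higher by the main edgeR fit or DESeq2, while 1 was higher by edgeR without a filter and 1 at an unadjusted p under 0.05. The count went to 3 without rhWnt3a replicate 1 or 3 or replicate 1 or 2 of the combination, where Bgn (adjusted p 0.0758 to 0.0906) and Sdc3 (0.0509 to 0.101, also without vehicle replicate 2) lost their calls. The core protein of aggrecan, Acan, was at 12, 12 and 5 counts in vehicle and 0 or 1 with either treatment and was not tested.

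Markers of neighbouring cell fates moved with the same groups. All 6 tested of 8 cartilage markers fell after rhWnt3a, their summed level going from 3140 to 4490 CPM in vehicle to 743 to 854 CPM, and to 523 to 1270 CPM with OSMI added, where edgeR called none of them. The 3 tested of 5 fat cell markers fell as well, from 43.5 to 51.9 CPM to 10.4 to 13.1 CPM, while Adipoq and Plin1, which define mature fat cells, had 0 to 3 counts in every library. The part of such shifts in the falls of Chst3, Csgalnact1 and Papss2 after rhWnt3a was not tested. On adding OSMI the fat cell regulator Pparg rose from 7.24 ± 0.427 to 11.2 ± 0.726 CPM (log2 0.63, edgeR adjusted p = 0.0374), whereas the fat cell marker Fabp4 had 4.05 ± 1.07 and 1.94 ± 0.928 CPM (log2 -1.06, adjusted p = 0.109). The cartilage sum is mostly Col11a1, with 695 ± 44.6 CPM after rhWnt3a and 679 ± 396 CPM with OSMI added. Col2a1, the main cartilage collagen, had 15.4 ± 1.37 and 10.2 ± 1.23 CPM in the same groups (log2 -0.60, edgeR adjusted p = 0.0865). Their part in the falls of Csgalnact1 and Papss2 on adding OSMI was not tested either.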

How the data were processed

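Poly-A RNA was sequenced in 9 libraries, 3 in each of 3 groups, named by group and replicate as in the labels. According to the submitters' processing notes the reads were handled with CASAVA and fastp, HISAT2 2.0.5, featureCounts 1.5.0-p3 and the mm10 build. The strand setting and annotation release are not given in the sources used here. The deposited table holds the authors' raw read counts for each gene, FPKM values scaled by the authors to gene length and library size, and a gene length. Its columns of the authors' own comparisons, log2 fold changes and p-values, were not used. Some genes of the further lists are not reported here. The 40 genes, the further lists and the tests were chosen with earlier results of these data known.

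Counts were tested in R 4.3.3 with edgeR 4.0.16. Genes needed a count of about 10 in 3 libraries (filterByExpr, minimum total 15), TMM scaling was applied, and one quasi-likelihood fit to all 9 libraries served the 3 comparisons, with tests two-sided and p-values adjusted over the 14004 tested genes by Benjamini-Hochberg. CPM used TMM-scaled totals, and CPM per kb the deposited gene length. With 3 libraries against 3 an exact permutation test of a single value cannot go below p = 0.1, and none was used. In counts simulated for rhWnt3a against vehicle over 14004 genes the fit recovered 51% of 100 genes changed by log2 1 and 94% of 100 changed by log2 2, with 4 false calls. The simulation gave every gene the same spread (dispersion 0.0452) and set no library apart from its group. It therefore does not give the recovery or the false calls to be had in the real libraries. Values in every library are given for genes called in any comparison and for those with a mean of 10 CPM or more in a group whose libraries did not overlap after rhWnt3a or on adding OSMI. Other genes of the 40 are given by range, apart from Ndst1, Extl3, Chst11 and Has1, chosen after their values were seen. Counting intervals are exact at 95%.

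Alternatives were DESeq2 1.42.0, another scaling, no filter, a stricter filter, unadjusted p, a log2 threshold of 1, the replicate number as a block, offsets for length and GC content (splines with 4 degrees of freedom each), a fit to the 6 libraries compared, and leaving out libraries. Levels per length of the called genes were also taken from the deposited FPKM. Values within each side of the axis between libraries were added after the data were seen. Overlapping genes came from GENCODE M21, and near-identical transcripts from BLAST 2.17.0+ at 97% identity over 100 bases or more.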

Additional observations from a re-analysis of the deposited data

How the results depend on the processing

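For the 40 genes, the counts called after rhWnt3a, on adding OSMI, and for the combination against vehicle (6, 5 and 9) went to 3, 4 and 5 at a log2 threshold of 1, and to 11, 13 and 15 without the 3 libraries apart. Over all genes the counts (1230, 664 and 1986) went to 796, 380 and 1118, and to 2505, 1788 and 3313, in the same settings. On adding OSMI, 8 of the 40 genes were called with no filter and 8 at an unadjusted p, where 1481 and 2271 of all genes were. Leaving out 1 library gave 708 to 1489, 205 to 786 and 1237 to 2289 calls over all genes. For the 40 genes it gave 3 to 7, 3 to 6 and 5 to 9. The count was 3 after rhWnt3a without vehicle replicate 1 or 2, 3 on adding OSMI without vehicle replicate 2, any rhWnt3a library or replicate 1 or 2 of the combination, and 5 against vehicle without vehicle replicate 1 or replicate 1 of the combination. Replicate numbers did not pair the libraries (correlations of same-numbered deviations -0.49 to 0.439), and with the replicate block the counts were 4 (without Chst3 and Glce), 3 and 5. Over all genes the block gave 809, 233 and 1297. For the 4 further lists the counts were 9, 6 and 18. Those after rhWnt3a went to 14 (no filter), 16 (unadjusted p) and 18 (without the 3 libraries), where all genes gave 1552, 2155 and 2505. On adding OSMI they were 11 at an unadjusted p, 3 at a log2 threshold of 1, 3 with the replicate block and 10 without the 3 libraries, and for the combination against vehicle 11 at a log2 threshold of 1. Leaving out 1 library gave 8 to 12, 3 to 7 and 13 to 20 for these lists. Signs turned for differences that had not passed, Dsel after rhWnt3a without rhWnt3a replicate 1 (log2 -0.0011, and up to 0.2162 without any other), Has2 after rhWnt3a without vehicle replicate 1 (log2 0.1234, and down to -0.1906 without any other), and Ext2 on adding OSMI with length and GC offsets (log2 -0.0332) or those with the replicate block (log2 -0.0296). Causes were not tested. Mean levels per length from the deposited FPKM differed by less than 1 SD for each of the 10 called genes. Of the other values of single genes, 751 kept direction and side of the threshold, 63 lost and 21 gained a call. Depth limits Has2 and Chst3, where single libraries held as few as 1 count.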
